A study of Homo sapiens with 12 samples.

Results

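The genes described here are those of β-catenin (CTNNB1), the 4 TCF/LEF factors that carry it to DNA (TCF7, TCF7L1, TCF7L2 and LEF1), 3 of its nuclear cofactors (BCL9, BCL9L and PYGO2) and 2 genes of the complex that destroys it (APC and GSK3B). They were found by name, and all 10 had a row among the 34687 gene names measured. RNA was read on Illumina HumanHT-12 BeadChips, which carry gene probes on beads and record the brightness of labelled RNA bound to each. HCT116 is a colon cancer line and PANC1 a pancreatic adenocarcinoma line. Cells of each line received ICG-001 or C646, each at 10 uM, or the solvent DMSO alone at 0.05% as control, and were collected at 12 or 96 h, which gave 12 groups. ICG-001 binds the co-activator CBP and blocks its contact with β-catenin, and C646 inhibits the acetyltransferase activity of CBP and its relative p300. The cells for the late time point were seeded more sparsely, passaged during treatment and given fresh drug or DMSO daily, so the time points differ in culture as well as in length. Each group is 1 column of values, in which the authors averaged 2 arrays, except that the column of PANC1 under ICG-001 at 12 h averages 3. No spread between replicates could be computed from these means, so no test was run and every difference below is a size measured between 2 columns.

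In cells without a WNT signal, a complex built on the scaffolds APC and AXIN lets the kinase GSK3B mark β-catenin for degradation. When WNT ligands bind Frizzled and LRP receptors the complex stops working, β-catenin accumulates and enters the nucleus, and TCF/LEF factors bring it to their target genes. There BCL9 or BCL9L joins β-catenin to PYGO2, a reader of methylated histone H3, and CBP or p300 acetylates the surrounding histones. TCF7L2 is the main TCF/LEF factor of the intestinal epithelium, and TCF7L1 acts largely as a repressor. HCT116 cells carry an activating mutation of CTNNB1 itself. The arrays measured RNA, and the amount of β-catenin protein, which degradation largely sets, was not measured here. In such bulk samples, fewer cells with a transcript and less transcript per cell cannot be told apart.

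The promoters of CTNNB1 and TCF7L2 are shown because these were the genes at least 1.5-fold lower with both drugs at both times in HCT116, and that of GSK3B because its signal lay higher with both drugs in both lines. Each is the 250 bases before an annotated start in RefSeq (build GRCh38.p14), read 5′ to 3′ on the strand of the gene. Capitals mark the GC box, GGGCGG, and 4 words bound by TCF/LEF factors (the word CTTTGAA, the word CTTTGAT, the word CTTTGTA and the word CTTTGTT), each sought on both strands. The CTNNB1 promoter is chr3:41199255-41199504 on the plus strand, and the GSK3B promoter is chr3:120094448-120094697 on the minus strand. TCF7L2 has 3 annotated starts in the table, of which the first (chr10:112949997-112950246, plus strand) lies before the gene and the second (chr10:113126383-113126632, plus strand) lies within it.
CTNNB1: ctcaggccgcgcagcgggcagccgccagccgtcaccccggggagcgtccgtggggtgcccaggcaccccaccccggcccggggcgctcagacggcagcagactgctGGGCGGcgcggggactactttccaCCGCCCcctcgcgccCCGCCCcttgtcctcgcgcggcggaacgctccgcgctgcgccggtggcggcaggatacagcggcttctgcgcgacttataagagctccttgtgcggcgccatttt
TCF7L2, first start: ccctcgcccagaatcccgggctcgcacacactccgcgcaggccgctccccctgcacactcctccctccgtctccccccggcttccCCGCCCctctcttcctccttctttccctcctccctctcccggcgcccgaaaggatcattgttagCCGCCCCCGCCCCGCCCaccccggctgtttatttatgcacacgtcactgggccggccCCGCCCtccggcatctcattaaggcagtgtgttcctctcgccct
TCF7L2, second start: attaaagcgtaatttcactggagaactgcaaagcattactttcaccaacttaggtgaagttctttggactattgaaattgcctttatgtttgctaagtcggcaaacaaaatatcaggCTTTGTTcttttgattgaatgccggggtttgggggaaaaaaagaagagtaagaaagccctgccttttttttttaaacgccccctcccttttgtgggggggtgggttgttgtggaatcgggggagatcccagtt
GSK3B: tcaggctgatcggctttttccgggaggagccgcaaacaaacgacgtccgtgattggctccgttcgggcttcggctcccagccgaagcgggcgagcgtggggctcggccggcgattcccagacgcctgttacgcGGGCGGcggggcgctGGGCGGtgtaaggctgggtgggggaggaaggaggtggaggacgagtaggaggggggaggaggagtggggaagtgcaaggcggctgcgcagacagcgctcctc

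The CTNNB1 promoter held 3 GC boxes and had a GC content of 74.4%, against a median of 58% over all promoters in the table. The first TCF7L2 promoter held 5 GC boxes at 68% GC, 2 of which shared 1 base, and the GSK3B promoter held 2 at 68.8% GC. The second TCF7L2 promoter was of another kind, with 42.4% GC, no GC box and 1 TCF/LEF word, CTTTGTT, from 133 to 127 bases before the start. Of the 10 genes 9 had a promoter in the table, 13 promoters in all, and 2 of these held a TCF/LEF word, that of TCF7L2 and the second start of TCF7. A GC box was found in 8 of the 13. Over all 35116 promoters, 12.0% held a TCF/LEF word and 42.6% a GC box. A match is a description of the sequence only, and which start the array probe reads was not tested.

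β-catenin RNA was lower with both drugs at both times in HCT116 and nearly level in PANC1. In HCT116 the CTNNB1 signal was 611 in DMSO at 12 h and 547 at 96 h, 400.4 and 354 under ICG-001, and 367 and 354 under C646. The 4 drug columns all lay below both DMSO columns, and the nearest drug and DMSO columns were 1.37-fold apart, against 1.12-fold between the DMSO columns. Against DMSO of the same time, CTNNB1 was 1.52-fold and 1.54-fold lower under ICG-001 at 12 and 96 h, and 1.66-fold and 1.54-fold lower under C646. A difference of at least 1.5-fold between 2 columns is called a change here, and CTNNB1 thus fell in all 4 comparisons, though narrowly in 3 of them. Set against the 96-h DMSO column instead, the 12-h differences were 1.37-fold for ICG-001 and 1.49-fold for C646 and no longer passed. In PANC1 the CTNNB1 signal was 223 and 224 in DMSO, 242 and 233 under ICG-001, and 229 and 213 under C646. The drug columns lay on both sides of the DMSO columns there, and the 4 log2 ratios ran from -0.07 to 0.12.

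TCF7L2 had the largest difference of the 10 genes, and it too was lower in HCT116 with either drug. Its HCT116 signal was 596 in DMSO at 12 h and 800.3 at 96 h, 271 and 317 under ICG-001, and 333 and 410.2 under C646. TCF7L2 was 2.20-fold and 2.53-fold lower under ICG-001 at 12 and 96 h, and 1.79-fold and 1.95-fold lower under C646. Every drug column lay below both DMSO columns, which were themselves 1.34-fold apart, and the nearest columns were 1.45-fold apart. Few rows of the array had a lower ratio: 43 of 16613 and 65 of 16617 under ICG-001, and 61 of 16461 and 21 of 16374 under C646. These denominators count the rows for which either column compared passed a detection limit. Against the 12-h DMSO column, the fall under C646 at 96 h was 1.45-fold and did not pass.

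In PANC1 the TCF7L2 signal was 245 and 215 in DMSO, 209.8 and 172 under ICG-001, and 172 and 192 under C646. The drug columns were again all below the DMSO columns, by as little as 1.03-fold, and no difference reached 1.5-fold. The log2 ratios were -0.22 and -0.33 under ICG-001 and -0.51 and -0.17 under C646 at 12 and 96 h. The signals were not background-subtracted, which makes ratios of dim rows smaller. The background peaked at 122 to 123 in PANC1 and at 128 in HCT116. In DMSO, CTNNB1 and TCF7L2 lay nearer that peak in PANC1 than in HCT116. The sizes of their ratios are therefore not compared between the lines. After normexp, which models and removes the background, the ratio after 96 h of ICG-001 was -0.60 and that after 12 h of C646 was -0.95, both past 1.5-fold. Normexp also raised the share of all rows past 1.5-fold. Ratios that pass only after normexp, here and below, are therefore not counted as changes. Quantile normalization over all 12 columns, used because each line seems to have been normalized on its own, put DMSO levels in HCT116 above those in PANC1 by 1.40 on the log2 scale for CTNNB1 and 1.64 for TCF7L2. The log2 ratio furthest from 0 of either gene against DMSO within HCT116, that of TCF7L2 under ICG-001 at 96 h, was -1.34.

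TCF7L1, the largely repressive factor, was dim. Its HCT116 signal was 154 and 192 in DMSO, 127 and 140.4 under ICG-001, and 145 and 151 under C646. Both ICG-001 columns were at or under the detection limit, a signal of 144.6 to 144.8 in HCT116. Set against that limit, TCF7L1 was at least 1.07-fold lower under ICG-001 at 12 h and at least 1.33-fold lower at 96 h. These bounds carry no replicate error, and the 12-h DMSO column, at 154, was itself near the limit. The measured log2 ratios were -0.28 and -0.45 under ICG-001 and -0.09 and -0.35 under C646. After normexp that of C646 at 96 h was -0.80, past 1.5-fold. In PANC1 TCF7L1 was above the limit throughout, at 192 and 203 in DMSO, 187 and 203 under ICG-001, and 167 and 181 under C646, and its ratios ran from -0.20 to 0.00. TCF7 and LEF1, the factors best known from lymphoid cells, did not pass the limit in 11 columns and all 12 columns, respectively. Their signals lay between 122 and 139 for TCF7 and between 123 and 131 for LEF1, and no direction is read from them.

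**Figure D1:**
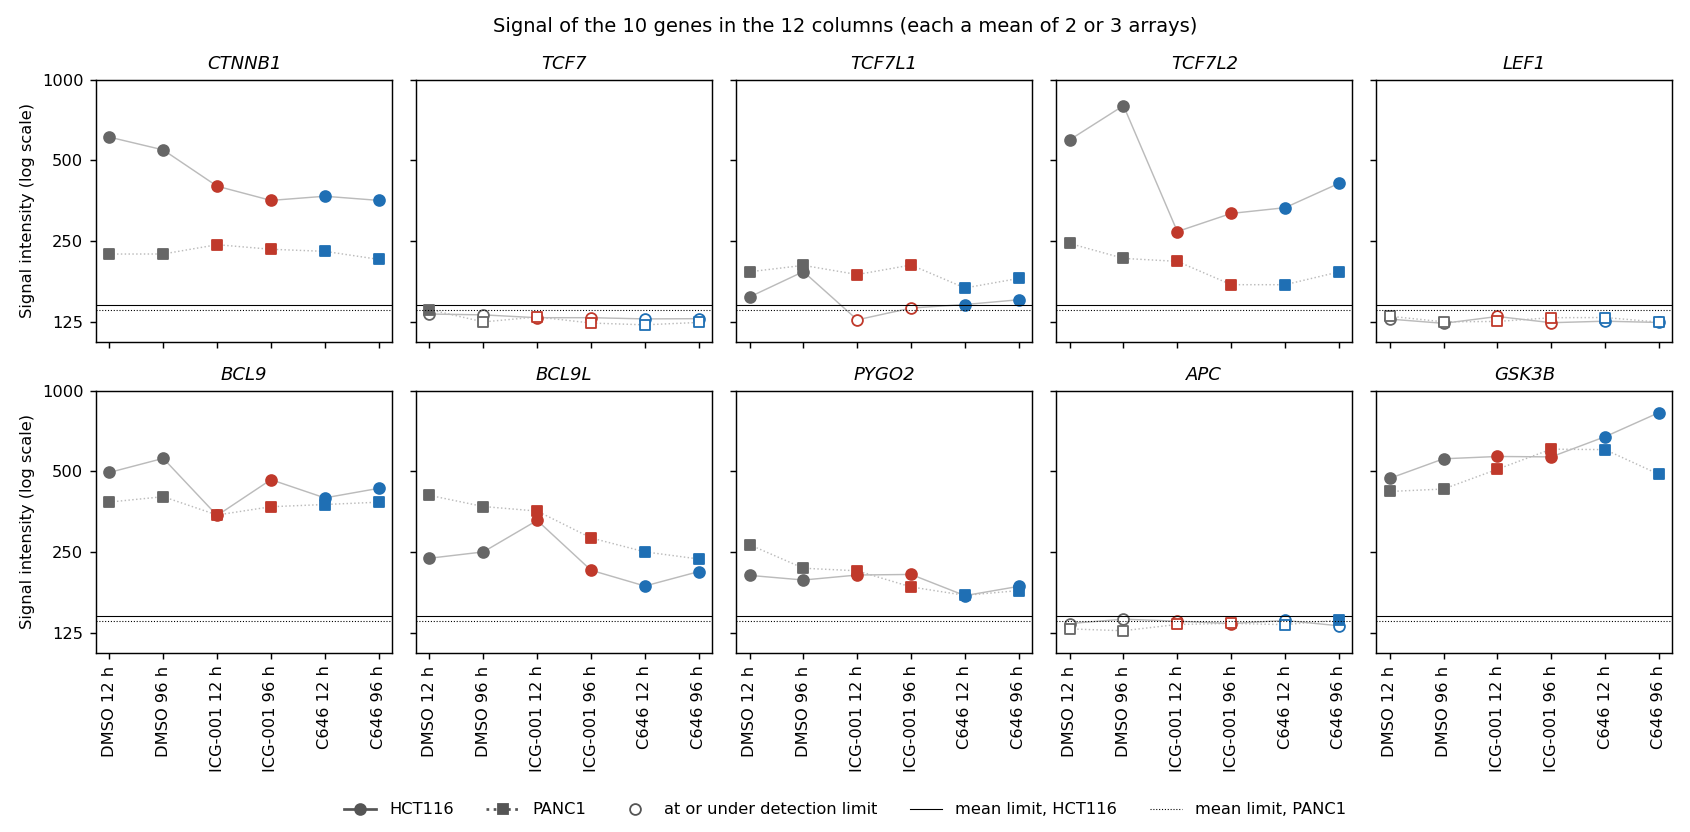
Signal intensity (log scale) of each of the 10 genes in the 6 HCT116 columns (circles) and 6 PANC1 columns (squares), coloured by treatment, with open symbols at or under the detection limit and thin lines only to join the columns of a line. CTNNB1 and TCF7L2 lie lower in the 4 drug columns than in the 2 DMSO columns of HCT116, and TCF7, LEF1 and APC lie at or under the limit in nearly every column.

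BCL9, which bridges β-catenin and PYGO2, was below DMSO in every drug column of both lines, by less than 1.5-fold at the same time. The HCT116 signal was 496 and 559.6 in DMSO, 342 and 466 under ICG-001, and 398 and 432 under C646. The difference was largest under ICG-001 at 12 h, 1.45-fold, and the log2 ratios of the other 3 were -0.37 to -0.26. After normexp the ratio of ICG-001 at 12 h was -0.71, past 1.5-fold, and against the 96-h DMSO column without normexp it was also -0.71. In PANC1 BCL9 was at 384 and 403 in DMSO, 344 and 369 under ICG-001, and 376 and 384 under C646, and the ratios ran from -0.16 to -0.03.

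BCL9L, its paralog, was lower than DMSO in 7 of the 8 comparisons, as BCL9 was in all 8. Some of these differences were small, BCL9 being at -0.03 and -0.07 under C646 in PANC1. The comparisons share DMSO columns, and the share of all rows with such signs was not counted, so no result is read from these counts. In HCT116 its signal was 237 and 250.3 in DMSO, 328 and 214 under ICG-001, and 187 and 211 under C646. ICG-001 at 12 h stood alone above DMSO, 1.38-fold higher, while the other 3 drug columns lay below both DMSO columns. After normexp that ratio was 0.70 on the log2 scale, past 1.5-fold, and the ratio of C646 at 12 h was -0.63. In PANC1 the signal was 407 and 369.8 in DMSO, 356 and 282 under ICG-001, and 250.4 and 236 under C646. BCL9L fell 1.63-fold and 1.57-fold under C646 at 12 and 96 h in PANC1, and was 1.14-fold and 1.31-fold lower under ICG-001. Against the 96-h DMSO column the C646 difference at 12 h was 1.48-fold.

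PYGO2, the histone reader, differed from DMSO by at most 1.19-fold in HCT116, at 205 and 197 in DMSO, 205 and 206 under ICG-001, and 172 and 186 under C646. In PANC1 it was at 266 and 218 in DMSO, 213 and 185 under ICG-001, and 172 and 179.5 under C646, all 4 drug columns below both DMSO columns. PYGO2 fell 1.55-fold under C646 at 12 h in PANC1. This rested on the 12-h DMSO column, since against the 96-h DMSO column the difference was 1.26-fold. The other 3 PANC1 log2 ratios of PYGO2 were between -0.32 and -0.23.

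GSK3B, the kinase of the destruction complex, was the one gene of the 10 above the limit throughout whose signal lay above both DMSO columns in all 4 drug columns of each line, and it did not reach 1.5-fold against DMSO of the same time. Its HCT116 signal was 471 and 558 in DMSO, 569 and 567 under ICG-001, and 674 and 829 under C646. The HCT116 ratios were 0.27 and 0.02 under ICG-001 and 0.52 and 0.57 under C646, and the ICG-001 column was within 1.02-fold of DMSO at 96 h. Against the 12-h DMSO column the ratio of C646 at 96 h was 0.82, past 1.5-fold. In PANC1 GSK3B was at 421 and 429.9 in DMSO, 509.7 and 606 under ICG-001, and 603 and 488 under C646. The PANC1 ratios were 0.28 and 0.49 under ICG-001 and 0.52 and 0.18 under C646. After normexp, 4 of these 8 passed 1.5-fold: 0.63 and 0.65 under C646 in HCT116, and in PANC1 0.62 under ICG-001 at 96 h and 0.62 under C646 at 12 h. More of all rows also passed after normexp, and these 4 are not counted as changes. APC, the scaffold, did not pass the limit in 11 of the 12 columns, with signals between 127 and 140.4, so that its level could not be followed.

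**Figure D2:**
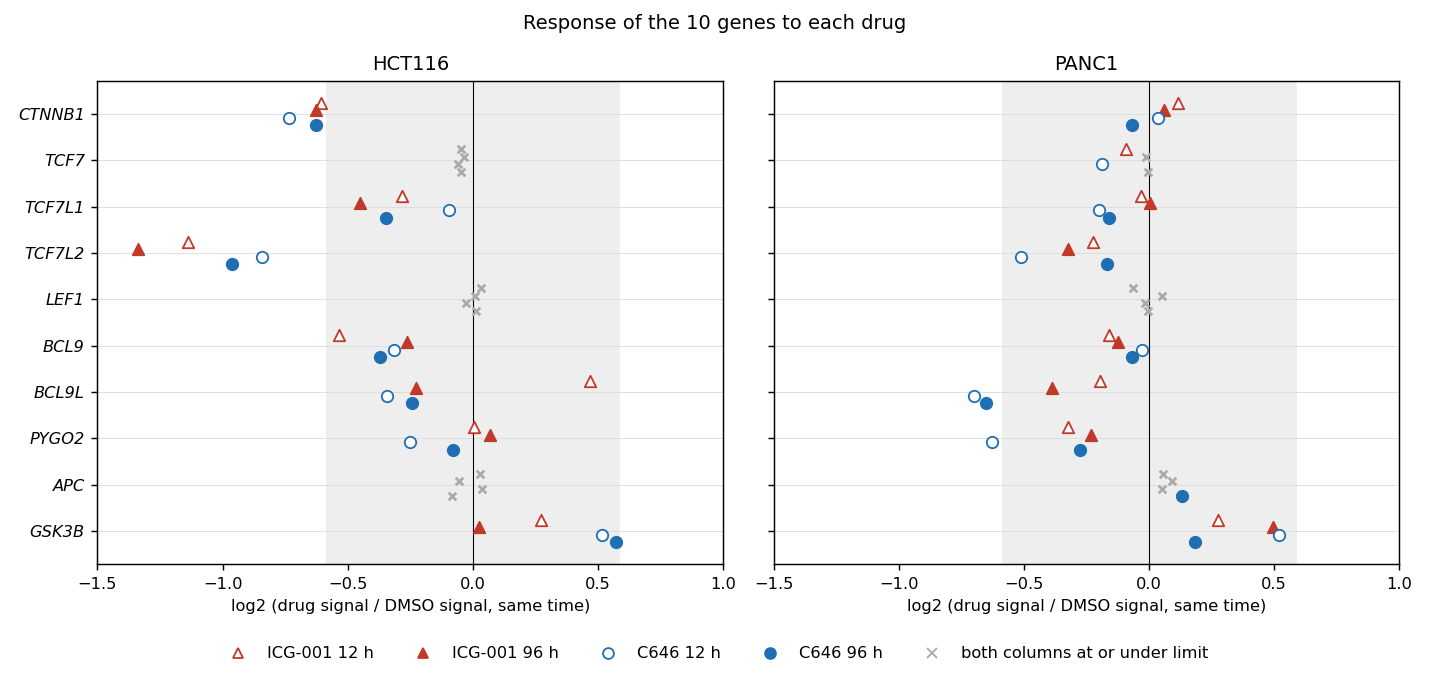
Log2 ratio of drug over DMSO signal at the same time for the 10 genes in HCT116 and PANC1, where the grey band spans less than 1.5-fold and crosses mark ratios with both columns at or under the detection limit. CTNNB1 and TCF7L2 lie left of the band in all 4 HCT116 comparisons, and in PANC1 BCL9L does so under C646 at both times and PYGO2 under C646 at 12 h.

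Counted over the genes above the limit, 2 of 7 changed in each of the 4 comparisons of HCT116 with DMSO, CTNNB1 and TCF7L2 each time, and both were lower. Of all rows above the limit, 9.20% changed in either direction under ICG-001 at 12 h, 10.5% at 96 h, 4.26% under C646 at 12 h and 3.21% at 96 h. The shares of all rows that fell were 4.26%, 5.26%, 1.58% and 1.26% in the same order. The median log2 ratio of the 7 genes was -0.28 and -0.26 under ICG-001 and -0.32 and -0.35 under C646, while that of all rows was between -0.01 and 0.00. The median of -0.28 is the ratio of TCF7L1 itself. Its ICG-001 column was at or under the limit, so no size is read from that median. In HCT116, 48 of 18571 rows, 0.258%, fell in all 4 comparisons, and CTNNB1 and TCF7L2 were 2 of them. The comparisons of both drugs at a time share 1 DMSO column, so these falls are not separate observations.

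In PANC1 under ICG-001, 0 of 8 genes changed at 12 h and 0 of 7 at 96 h, where 2.57% and 7.74% of all rows changed. With C646, 2 of 8 changed at 12 h, BCL9L and PYGO2, and 1 of 8 at 96 h, BCL9L. Of all rows, 6.92% and 4.15% changed under C646 in either direction, and 2.79% and 1.23% fell. The medians of the genes were -0.13, -0.12, -0.20 and -0.11 in the order of the comparisons named. Those at 12 h, -0.13 and -0.20, rest in part on TCF7, whose drug columns were at or under the limit. Of all PANC1 rows, 0.0588% fell in all 4 comparisons, none of the 10 genes among them. Without regard to size, the 4 drug columns lay below both DMSO columns for CTNNB1, TCF7L1, TCF7L2 and BCL9 in HCT116, and for TCF7L2, BCL9, BCL9L and PYGO2 in PANC1. This held for 10.9% of all rows in HCT116 and 13.5% in PANC1. The drug columns all lay above DMSO for GSK3B in both lines, as for 11.4% of all rows in HCT116 and 13.5% in PANC1. APC did so in PANC1 as well, by 1.04-fold at the nearest columns, but passed the limit there in 1 column only. Apart from CTNNB1 and TCF7L2 in HCT116, the gaps between the nearest drug and DMSO columns of these genes were small, from 1.00-fold for BCL9 in PANC1 to 1.13-fold for GSK3B in PANC1.

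**Figure D3:**
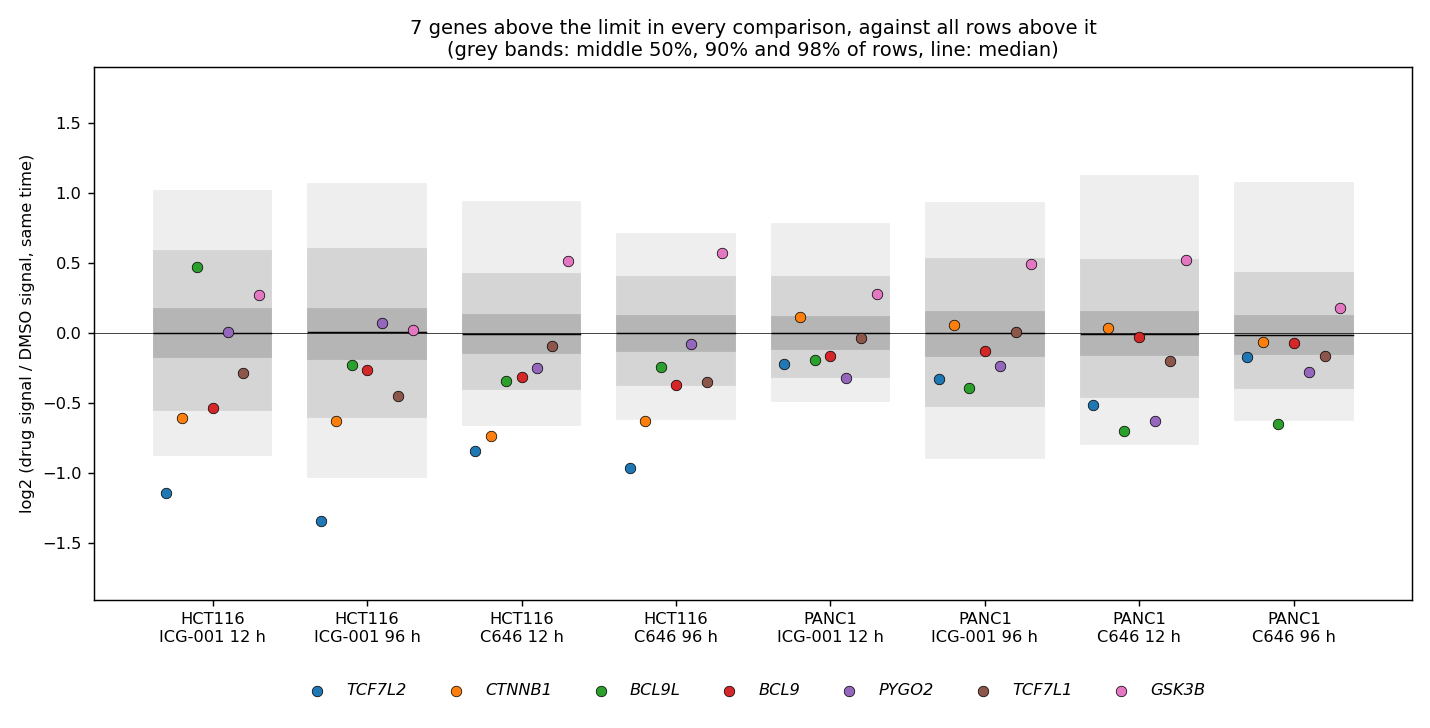
Log2 ratio of drug over DMSO signal in the 8 comparisons for the 7 genes above the detection limit in each, over grey bands that hold the middle 50%, 90% and 98% of all rows above the limit. TCF7L2 lies below the 98% band in all 4 HCT116 comparisons, and CTNNB1 does so in HCT116 under C646 only. In PANC1, BCL9L lies below it under C646 at 96 h. GSK3B lies inside the 98% band in all 8 comparisons.

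ICG-001 and C646, which are not analogs, were also set against each other at the same dose and time, in 4 comparisons that use no DMSO column. The drugs differ in how they act as well as in their targets, so these comparisons do not separate CBP from p300. One of the 10 genes differed by 1.5-fold, BCL9L in HCT116 at 12 h, 1.76-fold higher under ICG-001 than under C646. It was 1 of 7 genes there, where 6.41% of all rows changed, and 0 of 7 in HCT116 at 96 h (6.71% of all rows), 0 of 7 in PANC1 at 12 h (2.59%) and 0 of 8 in PANC1 at 96 h (7.08%). At 96 h in HCT116, the BCL9L columns of the drugs differed by 1.01-fold. TCF7L2 was lower under ICG-001 than under C646 in HCT116, by 1.23-fold at 12 h and 1.30-fold at 96 h, and CTNNB1 differed by 1.09-fold and 1.00-fold. GSK3B was 1.46-fold lower under ICG-001 than under C646 in HCT116 at 96 h, and 1.24-fold higher in PANC1 at that time. Without replicate values it is not known which of these differences exceed the spread between arrays.

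Between the DMSO columns of 12 and 96 h none of the 10 genes differed by 1.5-fold, 0 of 7 in HCT116, where 3.21% of all rows changed, and 0 of 8 in PANC1, where 1.34% did. TCF7L2 was 1.34-fold higher at 96 h than at 12 h in HCT116 and 1.14-fold lower in PANC1. TCF7L1 was 1.24-fold higher at 96 h in HCT116, and PYGO2 was 1.22-fold lower in PANC1. CTNNB1 was 1.12-fold lower at 96 h in HCT116 and within 1.00-fold in PANC1. The HCT116 differences of TCF7L2 with DMSO, from 1.79-fold to 2.53-fold, were all larger than its own difference between the DMSO columns, as were those of CTNNB1.

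The rows whose signal followed CTNNB1 and TCF7L2 most closely were found by Pearson's r of log2 signals over the 6 columns of a line, among rows above the limit in all 6. The columns share the DMSO controls and the normalization, and in HCT116 r was above 0.9 for 268 rows with CTNNB1 and 372 with TCF7L2, so r is a description. For CTNNB1 in HCT116 the closest of 12702 rows were a row named by a sequence cluster and not a gene, RNU4ATAC, RPS26L, KIAA2010 and LOC652672, with r from 0.991 to 0.996. RNU4ATAC, the small nuclear RNA of the minor spliceosome, went from 244 and 238 in DMSO to between 162 and 180.4 with the drugs. For TCF7L2 in HCT116 they were G3BP2, a stress granule protein, UBA1, the main ubiquitin-activating enzyme, UBE1, LOC647328 and C5orf25, with r from 0.991 to 0.996. UBE1 is an older name of UBA1, so these are 2 readings of 1 gene. Its UBA1 row was at 3073 and 3661 in DMSO, 1787 and 1969 under ICG-001, and 1968 and 2475 under C646. Between the described genes in HCT116, r with TCF7L2 was 0.88 for BCL9, 0.82 for CTNNB1, 0.10 for PYGO2, -0.05 for BCL9L and -0.32 for GSK3B. Of the 12702 rows, 525 had a higher r with TCF7L2 than BCL9 and 963 a higher one than CTNNB1.

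In PANC1 the closest of 13159 rows to CTNNB1 were MT1X, a metallothionein, PTGES2, a prostaglandin E synthase, ORC5L, of the origin recognition complex, ASH1L and FBXL11, both modifiers of histone methylation, with r from 0.979 to 0.994. CTNNB1 spanned only 213 to 242 in that line. The closest to TCF7L2 were ZNF761, NID1, a basement membrane protein, C7orf47, KIAA0319L and METTL9, with r from 0.990 to 0.997. None of these 10 rows is among the rows closest to the same gene in HCT116. With only 5 rows taken from 13159 here and from 12702 there, this is not read as a difference between the lines. In PANC1 the r of TCF7L2 was 0.95 with PYGO2, 0.85 with BCL9L, 0.33 with TCF7L1, 0.19 with BCL9, -0.12 with CTNNB1 and -0.92 with GSK3B. There, r was above 0.9 for 479 rows with TCF7L2 and 57 with CTNNB1, and 145 rows had a higher r with TCF7L2 than PYGO2.

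Other genes of the pathway were taken from lists by role and counted in the 8 comparisons with DMSO. Of all rows, 2.57% to 10.5% changed in these comparisons, so a few changes in a list are not read as a result about it. Among 16 other destruction complex genes, 11 to 13 were above the limit in a comparison, and at most 1 changed in each direction. PPP2R1A, the scaffold of the phosphatase PP2A, fell in 3 PANC1 comparisons, with log2 ratios of -0.28 and -0.76 under ICG-001 and -0.69 and -0.83 under C646 at 12 and 96 h. Named for their single changes after these were seen, AXIN2 was lower in HCT116 under ICG-001 at 12 h, -1.62, and CSNK1E higher in PANC1 under ICG-001 at 96 h, 0.72. Among 16 other nuclear cofactors at most 2 of 13 or 14 changed in a comparison, and no gene in more than 1 comparison. The 4 were picked out after seeing their values: TBL1X, higher in HCT116 under ICG-001 at 12 h (0.63), PAF1, higher, and TBL1XR1, lower, in HCT116 under C646 at 96 h (0.62 and -0.65), and MLL, lower in PANC1 under C646 at 12 h (-0.59). CREBBP and EP300, which encode CBP and p300, did not reach 1.5-fold, CREBBP running from -0.03 to 0.52 and EP300 from -0.43 to -0.05.

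Of 16 nuclear repressors, 14 were above the limit in each comparison with DMSO and at most 2 fell, with no rise. Falls of 2 came under C646 at 12 and 96 h in HCT116 and at 12 h in PANC1. Of all rows, 1.58%, 1.26% and 2.79% fell there. AES, a short Groucho-type corepressor, fell in HCT116 under ICG-001 at 12 h and under C646 at both times, with ratios of -0.63, -0.82 and -0.76, and was at -0.53 under ICG-001 at 96 h. In PANC1 it fell under C646 at 12 h, with a ratio of -0.90. SOX9, a transcription factor that restrains β-catenin, fell under C646 in both lines, with log2 ratios of -1.41 and then -0.71 in HCT116, and of -0.96 and then -0.88 in PANC1, at 12 and 96 h, and did not reach 1.5-fold under ICG-001. Among 9 genes of the cell junctions that hold β-catenin at the membrane, JUP, its relative plakoglobin, fell in HCT116 after 96 h of ICG-001, with a ratio of -0.89, and after 12 h of C646, with -0.73. CTNNAL1, related to α-catenin, fell in 3 PANC1 comparisons, with ratios of -0.62 and -0.64 under ICG-001 and -0.93 under C646 at 12 h, but it was also lower in DMSO at 96 h, 2221, than at 12 h, 3843. The single changes of this list, also named after they were seen, were a rise of CTNNA1 under ICG-001 at 12 h (0.61) and a fall of CTNNAL1 under ICG-001 at 96 h (-0.72) in HCT116, and a fall of JUP under ICG-001 at 96 h in PANC1 (-0.70).

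Of 18 receptor and Dishevelled genes, 15 to 18 were above the limit and at most 2 changed. FZD2 fell under ICG-001 in HCT116, with ratios of -0.64 and -0.60, and FZD6 rose by 0.78 and 0.85, while the FZD6 ratios under C646 were both -0.01. The single other change was a fall of FZD2 in PANC1 under ICG-001 at 96 h (-0.59). Among 14 feedback and other targets of the pathway, 5 to 11 were above the limit and 0 to 3 changed. Under ICG-001 in HCT116 CCND1, the cyclin of the G1 phase, rose by 0.99 and 1.10, and NKD2, an inhibitor of Dishevelled, rose in 3 PANC1 comparisons, by 0.89, 0.96 and 0.77. Beside AXIN2, DKK1 and MYC fell under ICG-001 at 96 h in HCT116, with ratios of -2.27 and -0.98, and DKK1 in PANC1, with -0.73. List medians ran from -0.28 to 0.19 over the 6 lists and 8 comparisons, against -0.01 to 0.00 for all rows. The lowest list median, -0.28, was that of the junction genes under ICG-001 at 12 h in HCT116, and that of the described genes in the same comparison was also -0.28. The latter is the ratio of TCF7L1, whose drug column was at or under the limit, so no size is read from it.

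**Figure D4:**
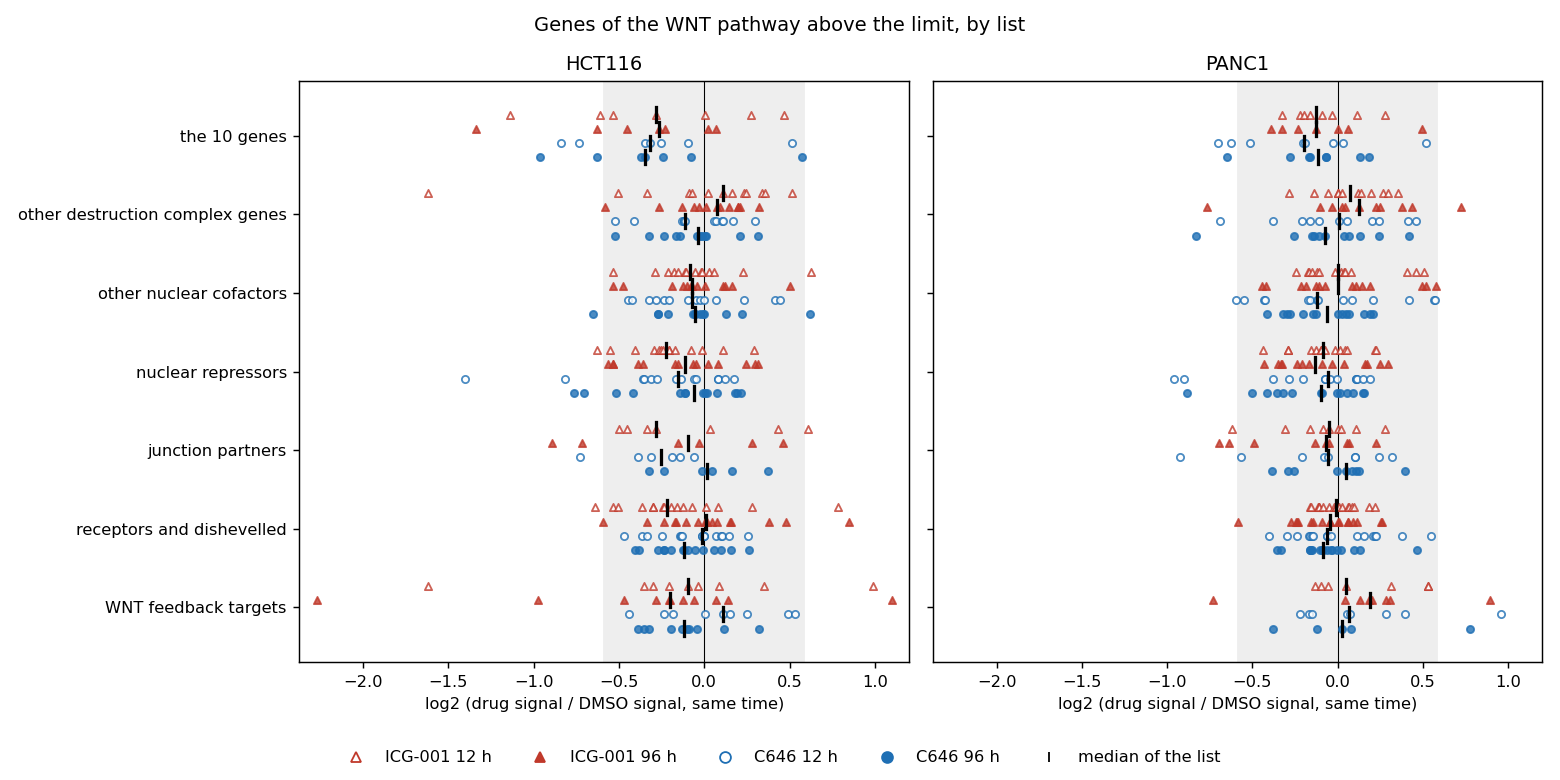
Log2 ratio of drug over DMSO signal for every gene above the detection limit in the described genes and in 6 lists of other WNT pathway genes, with a bar at each median and a grey band under 1.5-fold. Most genes of each list lie inside the band, and TCF7L2 is the point furthest left among the described genes.

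The cell lines were checked against markers of their origin. All 8 epithelial markers were above the limit in every column of both lines. Colon and pancreas markers did not separate the lines. Of 8 colon markers, 3 passed the limit in some column of HCT116, CDX2 in all 6, GPA33 in 5 and KRT20 in 1, and 4 in PANC1, where CDX2 also passed in all 6. CDX1, VIL1 and CEACAM5 passed in no column of either line. Of 8 markers of pancreatic duct and acinus, 3 passed in PANC1, KRT7, SOX9 and PDX1, each in all 6 columns, and 6 passed in some column of HCT116, with SOX9 and PDX1 among those in all 6. The acinar genes PTF1A, CPA1, PRSS1 and AMY2A passed in no PANC1 column, and in HCT116 PRSS1 and AMY2A each passed in 1. Of 8 mesenchymal markers, 5 passed in some column of PANC1 and 2 in HCT116, VIM in both lines and TWIST1 in HCT116 only. Their summed signal, mostly VIM in PANC1, ran from 17992 to 22024 in PANC1 and from 1171 to 1272 in HCT116. In each line 7 of 8 markers of blood and endothelium were at or under the limit in all columns. The summed signal of the epithelial markers ran from 24318 to 29086 over the HCT116 columns and from 9578 to 21050 over those of PANC1, where the log2 ratios of KRT8 and KRT19 were -1.06 and -1.17 under ICG-001 at 96 h. KRT7 in HCT116 was at or under the limit in both DMSO columns, at 142 and 140.02. It was above the limit under both drugs, at 389 and 336 under ICG-001 and at 178 and 200.1 under C646. The part of these markers in the results on the described genes was not tested.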

How the data were processed

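RNA of 2 cell lines was measured on Illumina HumanHT-12 v4 BeadChips in 12 groups (HCT116 or PANC1, DMSO, ICG-001 or C646, 12 or 96 h), and groups were taken from the sample labels. The deposited table gives each gene name 1 signal intensity per group, not log-transformed. By the study's methods, the authors exported the intensity values from GenomeStudio after quantile normalization without background subtraction and averaged 2 independent biological replicates. How probes of a gene were combined is not given in the sources used here, and values of single arrays were not used here.

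From these values, log2 ratios were computed of drug over DMSO of the same line and time (8), ICG-001 over C646 (4) and DMSO at 96 over 12 h (2). A column's detection limit lay 2.33 SD above the mode of its dim rows, the SD coming from rows below that mode, and a ratio was used where at least 1 of its 2 columns was above it. Limits were 144.6 to 144.8 in HCT116 and 136.2 to 139.8 in PANC1, with 14909 to 16070 rows above the limit per column. A bound such as at least 1.33-fold sets the brighter column against the limit of the dimmer one. The SD of log2 ratios among rows under the limit was 0.062 to 0.074, and the number of arrays limits the precision. Sorted log2 values differed by 0.0037 to 0.0093 on average between columns of a line and by 0.063 to 0.066 between lines, so levels were compared within a line, or after quantile normalization over the 12 columns where stated.

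The 10 genes, the lists of other pathway genes and the markers were chosen with earlier results of these data known. All 10 genes are named, with genes of a pathway list that changed at least 1.5-fold in 1 direction in at least 2 of the 4 comparisons of a line with DMSO, and the 5 rows with the highest Pearson r to CTNNB1 and to TCF7L2 in each line. Others were named after their values were seen. Alternatives were folds of 1.2 and 2, a limit at 5 SD or none, the DMSO column of the other time, median centring, quantile normalization over 12 columns and normexp correction (offset 16, limma 3.58.1 in R 4.3.3). Other values were computed with Python 3.11.15, numpy 2.4.6 and pandas 2.3.3, and the ratio script was tested on simulated data. Promoters were matched by symbol in a RefSeq table (GRCh38.p14).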

Additional observations from a re-analysis of the deposited data

How the results depend on the processing

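Of 106 alternative counts of the described genes that changed, 74 were within 1.5 times the reported count, 32 were not and 0 reversed in direction. This tally does not measure how stable the calls are. The 7 counts that held at a fold of 2 were already 0 at 1.5-fold, and a count can hold while its genes change. Against the 12-h DMSO column, C646 at 96 h in HCT116 lost TCF7L2 and gained GSK3B. At a fold of 1.2, the counts were 6, 4, 5 and 5 in HCT116 (ICG-001 at 12 and 96 h, then C646) and 2, 3, 4 and 2 in PANC1, then 2 and 2 in HCT116 and 3 and 1 in PANC1 for ICG-001 over C646, and, for time in DMSO, 2 in HCT116 and 1 in PANC1. At that fold 33.2%, 34.9%, 22.5% and 20.3% of all rows changed in HCT116 against DMSO and 17.5%, 30.5%, 27.6% and 22.1% in PANC1. At a fold of 2, 1 gene passed at each time with ICG-001 in HCT116, TCF7L2, and 0 passed with C646 in either line or for ICG-001 over C646 in HCT116 at 12 h. No share of all rows is set beside these counts. With normexp the counts were 5 for ICG-001 at 12 h, 4 and 4 for C646 in HCT116, 2 for ICG-001 at 96 h and 5 for C646 at 12 h in PANC1. For ICG-001 over C646 they were 2 and 1 in HCT116 and 1 in PANC1 at 12 h, and for time in HCT116 1. The share of all rows that changed rose with them, for example from 9.20% to 21.7% for ICG-001 at 12 h in HCT116. The higher counts are thus not read as a result on these genes. Against the DMSO column of the other time, the count with C646 at 12 h was 1 in HCT116 and 0 in PANC1. No filter on dim rows, a limit at 5 SD, median centring and quantile normalization over 12 columns moved no count beyond 1.5 times. No paired analysis was possible because each group has 1 column, a mean over its arrays. The genes that normexp added were TCF7L1, BCL9 and BCL9L (ICG-001 at 12 h), TCF7L1 (ICG-001 at 96 h), BCL9L and GSK3B (C646 at 12 h) and TCF7L1 and GSK3B (C646 at 96 h) in HCT116, and TCF7L2 and GSK3B (ICG-001 at 96 h) and TCF7, TCF7L2 and GSK3B (C646 at 12 h) in PANC1. The calls of TCF7L1 under ICG-001 and of TCF7 rest on a drug column at or under the limit, so no size is read from them. Differences of TCF7, LEF1 and APC were not detectable at their signal over background.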
